A study of Homo sapiens with 14 samples.

Results

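The miR-320 family was followed through both assays that enrich small RNA carrying N7-methylguanosine (m7G) from A549 cells, a human lung adenocarcinoma line. The family was taken by name as hsa-miR-320a, hsa-miR-320b, hsa-miR-320c, hsa-miR-320d and hsa-miR-320e (written without the prefix below), which are 5 of the 2588 mature miRNAs in each count table. All 14 libraries came from total RNA of untreated A549 cells and therefore share 1 cell line. The RNA had its caps removed before enrichment. In BoRed-seq, 2 libraries (Red) held RNA reduced with borohydride, in which m7G sites lose their base and can be pulled down through a biotin probe. Free m7GTP was present during the reduction, and the 2 control libraries (Ctrl) held RNA given borohydride that acid had inactivated. The paper's protocol carries this control RNA through probe coupling too and names no separate route to the pulldown. Ctrl is therefore not untreated input, and pulldown below is a short name for Red and IP. In m7G-RIP-seq, 5 libraries (IP) held RNA that an anti-m7G antibody bound after heat denaturation, and 5 libraries (Input) held the RNA before that step. The labels number the replicates but do not say whether they came from separate cultures, so every p-value measures the spread between these libraries, which may be technical.

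A miRNA is a short RNA that guides Argonaute proteins to messenger RNAs, mainly through bases 2 to 8 from its 5′ end, called the seed. Most miRNA hairpins are cut out of long transcripts by Drosha, but the miR-320a hairpin is known as an exception: it is transcribed directly as a short RNA with an m7G cap at its 5′ end, is exported as such and is cut only by Dicer. The mature miRNA comes from the 3′ arm, so the capped end is not part of it. In carcinoma cells, those of the lung included, miR-320a has been studied mainly as a repressor of growth and migration genes.

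The sequences are given because the members differ by so few bases that their counts depend on the 3′ ends of the reads. The RefSeq sequence table (GRCh38.p14) was used without the entries of a whole chromosome. What was left matched 4 of the 5 members, all but miR-320a. The capitals mark the seed. Among the miRNAs of the count tables with a sequence used here, miR-4429 is added as the other one with the seed of a printed member.
miR-320b: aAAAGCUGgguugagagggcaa
miR-320c: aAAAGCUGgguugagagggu
miR-320d: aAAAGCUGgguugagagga
miR-320e: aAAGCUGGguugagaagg
miR-4429: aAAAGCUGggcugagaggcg

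Positions are counted from 1 at the 5′ end of the sequence named before the change. From miR-320b to miR-320c the 19 bases at the 5′ end were shared, and the change was C20U. From miR-320b to miR-320d 18 bases were shared, with the change G19A. The 3 miRNAs thus have 1 seed and part only at their 3′ ends, where they are 22, 20 and 19 bases long. The 18 bases of miR-320e begin 1 base further along, so that its seed is shifted by 1 base, and G17A is its only change from miR-320b in that register. Relative to miR-320b, miR-4429 had the changes U11C, G19C and C20G.

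The members were also rich in guanine, the base that m7G derives from. Guanine made up 40.9% of miR-320b, 45.0% of miR-320c, 42.1% of miR-320d and 44.4% of miR-320e. The median was 27.3% over the 2370 mature human miRNAs used from the sequence table. The run GGG, searched on the miRNA strand with overlaps allowed, occurred at 2 positions in miR-320b and miR-320c and at 1 position in miR-320d and miR-320e. It was present in 33.2% of the 2370 miRNAs. The miRNAs of 20 bases or fewer, as miR-320c, miR-320d and miR-320e are, made up 15.4% of them.

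The hairpins of miR-320b to miR-320e are scattered over the genome (hg38, 1-based), and that of miR-320a is not listed. MIR320B1 lies between genes on the plus strand of chromosome 1, from 116671746 to 116671817. MIR320B2 lies on the minus strand of chromosome 1, from 224257040 to 224257110, in an intron of NVL. Both miR-320c hairpins lie on the plus strand of chromosome 18, MIR320C1 from 21683518 to 21683589 opposite an intron of ABHD3 and MIR320C2 from 24321675 to 24321746 opposite an intron of OSBPL1A. The miR-320d hairpins lie between genes on minus strands, MIR320D1 on chromosome 13 from 40727816 to 40727887 and MIR320D2 on chromosome X from 140926160 to 140926231. MIR320E lies on the minus strand of chromosome 19, from 46709282 to 46709354, in an intron of PRKD2. In these 7 hairpins, which are 71 to 73 bases long, the mature miRNA started at base 41 to 44, on the 3′ arm.

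Because of this likeness a read without its 3′ end cannot be assigned to 1 member. The first 18 bases that miR-320b, miR-320c and miR-320d share matched 8 places in hg38, of which 7 lay in hairpins of 4 family members. The first 19 bases of miR-320b and miR-320c matched 5 places, all in hairpins of 3 members. The complete miR-320b, miR-320c and miR-320d matched 2, 2 and 3 places. The authors kept reads with up to 10 loci and 1 mismatch, and how a read with several loci was counted is not given in the sources used here. Values of miR-320b to miR-320e are therefore uncertain, and so is the part of miR-320a that shortened reads make up.

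Library totals, summed over mature miRNAs, were 242085 and 277498 in Red and 4678102 and 5874405 in Ctrl. The IP totals lay between 2854811 and 6452759, and the Input totals between 7097379 and 14874685. The abundant miR-21-5p took 79.0% to 80.4% of Ctrl counts, 26.7% to 26.9% of Red, 38.0% to 46.3% of Input and 4.64% to 6.27% of IP. A count of 0 would still allow 3 counts, which is 10.8 to 12.4 CPM (counts scaled to a common library total) in Red and at most 1.05 elsewhere, and this limit covers counting error only. All 5 members were counted in all 14 libraries, and all 5 passed the filter on low counts in both assays.

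The family held the same internal order everywhere: miR-320a, then miR-320b, miR-320c, miR-320d and miR-320e, by raw counts in 14 of 14 libraries. In the 4 BoRed-seq libraries, given as Ctrl 1, Ctrl 2, Red 1 and Red 2, miR-320a had 6971, 4825, 3023 and 3547 counts. In the same libraries miR-320d had 67, 67, 67 and 98 counts, although Red libraries were far smaller than Ctrl libraries. At the low end miR-320e had 15, 7, 11 and 13 counts, so its BoRed-seq values rest on few reads. These raw counts cannot be compared between libraries without scaling.

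The family as a whole took a larger part of both pulldowns. Summed over the 5 members it made up 1328 and 1165 CPM in Ctrl and 15234 and 15917 in Red. In Input 1 to 5 the sum was 7777, 7573, 8039, 6764 and 5121 CPM. In IP 1 to 5 it was 33013, 34030, 36812, 14073 and 13703. All Red and IP libraries lay above all of their controls, and IP 4 and IP 5 lay well below the other IP libraries. CPM values move with the share that miR-21-5p gives up, so the comparisons below use normalized counts, scaled by median-of-ratios size factors that take the typical miRNA as unchanged.

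**Figure D1:**
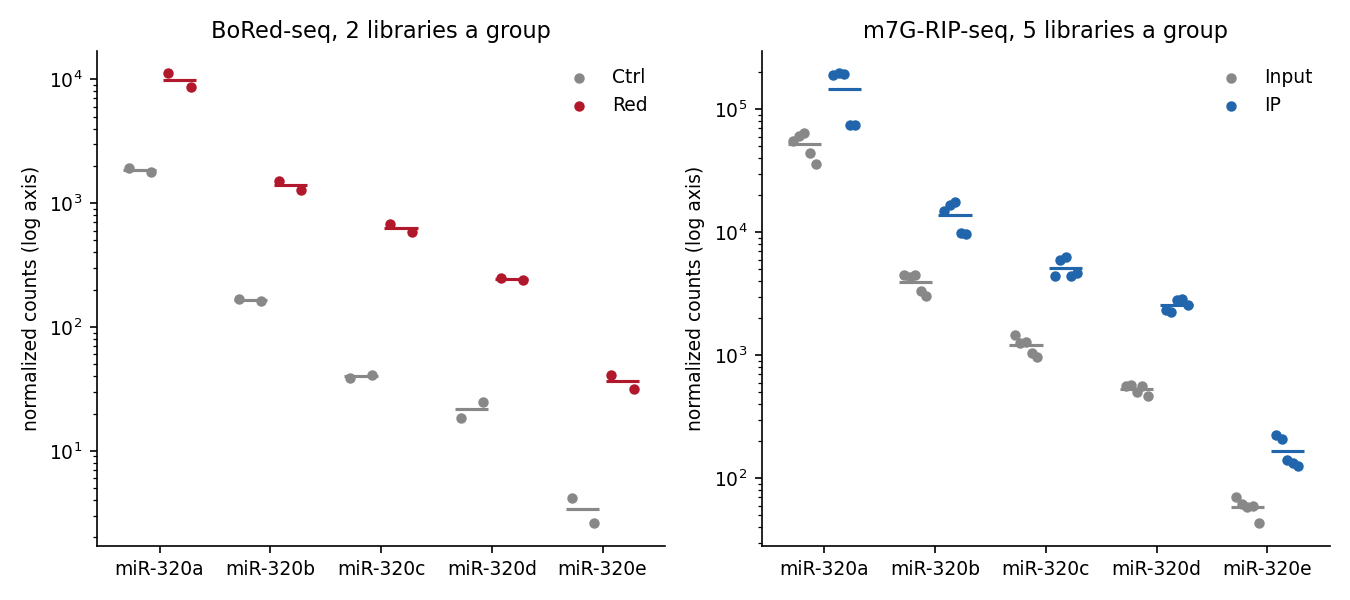
Normalized counts of the 5 members on log axes, BoRed-seq on the left and m7G-RIP-seq on the right, with 1 point per library in order of replicate number and a line at the mean of each group. The pulldown points lie above the control points for every member, from 31.8 and 40.7 against 2.60 and 4.15 for miR-320e in BoRed-seq to at least 74806 against at most 64097 for miR-320a in m7G-RIP-seq.

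In BoRed-seq all 5 members were enriched in Red over Ctrl. The increase ran from 5.34-fold for miR-320a to 15.7-fold for miR-320c, relative to the typical miRNA of the assay. A miRNA was called enriched at an adjusted p under 0.05 in the DESeq2 Wald test over 400 miRNAs, and 32.2% of those miRNAs were called enriched. Every Red library lay above every Ctrl library for 5 of 5 members, which held for 39.5% of all miRNAs tested. With 2 libraries a group this separation is a weak criterion, and members that may share reads are not separate cases. The sizes moved with the libraries and the count filter used, and the reason was not tested. With all 4 libraries and no count filter, the log2 enrichment was 1.93 for miR-320a and 3.49 for miR-320c. Without Red 1 or Red 2 that of miR-320a was 2.59 or 2.74. Without Ctrl 1, where 270 miRNAs were fitted in place of 453, the log2 enrichments were 1.69 for miR-320a, 2.31 for miR-320b, 3.15 for miR-320c and 2.51 for miR-320d, and without Ctrl 2 they were 1.78, 2.45, 3.43 and 3.12, and these 4 members were called each time.

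By member, miR-320a, the form most studied as a regulator, had normalized counts of 1929 and 1794 in Ctrl and 11195 and 8680 in Red. Its log2 enrichment was 2.42 ± 0.28 (SE), with an adjusted p of 3.78e-17 in DESeq2. For miR-320b, made from 2 hairpins, the values were 168 and 163 in Ctrl and 1500 and 1277 in Red. The log2 enrichment of miR-320b was 3.07 ± 0.29 (DESeq2 adjusted p = 4.28e-25). By normalized counts the Red replicates of miR-320a and miR-320b were farther apart than the Ctrl replicates, with Red 1 the higher each time. This order depends on the scaling. In CPM Red 2 was the higher, with 12782 against 12487 for miR-320a and 1881 against 1673 for miR-320b.

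The shorter members were rarer, and their estimates of enrichment were higher than those of miR-320a and miR-320b, without a test of the difference between members. For miR-320c the normalized counts were 38.5 and 41.3 in Ctrl and 674 and 580 in Red, and its log2 enrichment of 3.97 ± 0.33 (DESeq2 adjusted p = 3.18e-32) was the highest of the family. For miR-320d they were 18.5 and 24.9 in Ctrl and 248 and 240 in Red, a log2 enrichment of 3.49 ± 0.41 (DESeq2 adjusted p = 1.70e-16). The groups were far apart for both members, while the difference between these 2 enrichments was of the order of their standard errors and was not tested. For miR-320e they were 4.15 and 2.60 in Ctrl and 40.7 and 31.8 in Red, a log2 enrichment of 3.40 ± 0.84 (DESeq2 adjusted p = 0.000138). The call for miR-320e was lost without Ctrl 1 (log2 3.02, adjusted p = 0.0655 in DESeq2) and without Ctrl 2 (log2 2.53, adjusted p = 0.0874 in DESeq2). With Ctrl counts thinned to the Red depth its log2 enrichment was 5.24 (DESeq2 adjusted p = 0.0122).

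Among the 400 miRNAs, ordered from the highest log2 enrichment, miR-320c was at place 53, miR-320d at 60, miR-320e at 65, miR-320b at 78 and miR-320a at 94. The median log2 enrichment was 3.40 over the 5 members and -0.09 over all 400, and the 90th percentile of all was 4.81. The members were thus in the upper part of the assay but not at its top. Scaled by total counts instead, the median of the 453 miRNAs fitted moved from -0.32 to 0.76 and the members' log2 enrichments were then between 3.51 for miR-320a and 5.08 for miR-320c.

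**Figure D2:**
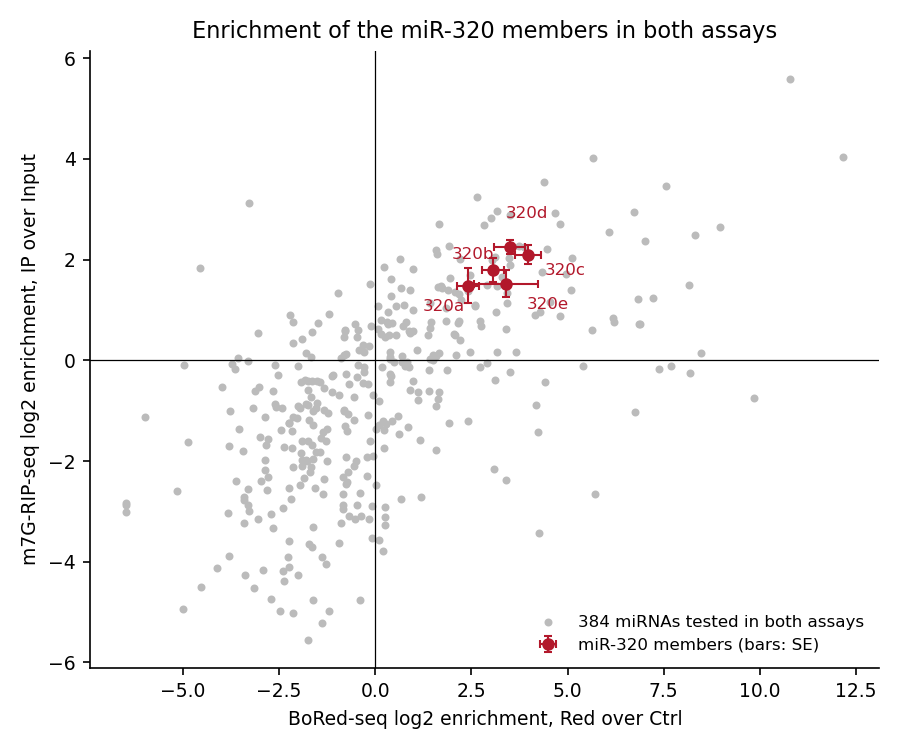
Log2 enrichment in BoRed-seq (x axis, Red over Ctrl) against log2 enrichment in m7G-RIP-seq (y axis, IP over Input) for the 384 miRNAs tested in both assays, with the 5 members in red and bars of 1 SE. All 5 members lie above 0 on both axes, between 2.42 and 3.97 in BoRed-seq and between 1.49 and 2.26 in m7G-RIP-seq, with miR-320a the lowest on each axis.

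In m7G-RIP-seq all 5 members were enriched in IP over Input as well. The increase ran from 2.8-fold for miR-320a to 4.78-fold for miR-320d. Over 670 miRNAs tested with the same DESeq2 test, with the libraries unpaired, 27.3% were called enriched. Every IP library lay above every Input library for 5 of 5 members, against 18.2% of all miRNAs tested. Near-identical members may share reads, so the 5 are not separate cases. Of the 384 miRNAs tested in both assays, 18.2% were called enriched in both, as the 5 members were.

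By library, miR-320a had 55780, 60949, 64097, 44205 and 36115 normalized counts in Input 1 to 5. In IP 1 to 5 it had 190312, 196683, 194395, 74806 and 75004. The groups did not overlap, but IP 4 and IP 5 were barely above Input 3 and far below IP 1 to IP 3. The mean was 52229 ± 11764 in Input and 146240 ± 65160 in IP (SD, n = 5 each). Its log2 enrichment was 1.49 ± 0.34 (DESeq2 adjusted p = 4.52e-05).

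In miR-320b IP 4 and IP 5 were again the lowest of the IP libraries, but well above every Input library. It had 4514, 4351, 4486, 3352 and 3010 normalized counts in Input 1 to 5 and 14851, 16546, 17783, 9794 and 9738 in IP 1 to 5. The log2 enrichment of miR-320b was 1.80 ± 0.24 (DESeq2 adjusted p = 6.28e-13).

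For miR-320c and miR-320d the IP libraries lay close together. The values of miR-320c were 1454, 1253, 1275, 1053 and 976 in Input 1 to 5 and 4395, 5973, 6326, 4423 and 4646 in IP 1 to 5. IP 4 and IP 5 were here level with IP 1. Its log2 enrichment was 2.10 ± 0.19 (DESeq2 adjusted p = 1.86e-27). The values of miR-320d were 567, 577, 508, 567 and 464 in Input 1 to 5 and 2338, 2236, 2809, 2860 and 2576 in IP 1 to 5. IP 4 was the highest of these, and the log2 enrichment of miR-320d, 2.26 ± 0.14 (DESeq2 adjusted p = 1.46e-55), was the largest and had the smallest error of the family.

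The rarest member, miR-320e, had 70.1, 62.2, 58.1, 59.0 and 43.2 normalized counts in Input 1 to 5. In IP 1 to 5 it had 227, 208, 141, 133 and 126. Its groups did not overlap either, and its log2 enrichment was 1.52 ± 0.27 (DESeq2 adjusted p = 6.96e-08), close to that of miR-320a. Places among the 670 miRNAs were 64 for miR-320d, 76 for miR-320c, 101 for miR-320b, 121 for miR-320e and 128 for miR-320a. The median log2 enrichment was 1.80 over the members and 0.02 over all 670, with a 90th percentile of 2.20. Only miR-320d lay above that percentile.

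The replicates differed in how far miR-320a was enriched. The log2 ratio of IP over Input for replicates 1 to 5 was 1.77, 1.69, 1.60, 0.76 and 1.05 for miR-320a. For miR-320d it was 2.04, 1.95, 2.47, 2.33 and 2.47. Replicates 4 and 5 stood apart from replicates 1 to 3 in the whole assay, a split that the labels do not name, and miR-21-5p took 6.17% and 6.27% of the counts in IP 5 and IP 4 against 4.64% to 5.10% in the other IP libraries. With the sets fitted alone in DESeq2, miR-320a had a log2 enrichment of 1.66 in replicates 1 to 3 and 0.82 in replicates 4 and 5, and remained called in each.

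An interaction term for the sets, added after the values were seen, gave a difference of -0.79 ± 0.16 for miR-320a (replicates 4 and 5 minus 1 to 3, DESeq2 adjusted p = 2.08e-05 over 488 miRNAs). The same term was -0.26 ± 0.16 for miR-320b (DESeq2 adjusted p = 0.225) and 0.09 ± 0.23 for miR-320c (DESeq2 adjusted p = 0.817). It was 0.24 ± 0.23 for miR-320d (DESeq2 adjusted p = 0.505) and -0.27 ± 0.50 for miR-320e (DESeq2 adjusted p = 0.778). Only miR-320a passed the threshold in this test, and it is in the direction of 52 of the 488 miRNAs, with 79 called the other way. What set the replicates apart was not tested.

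**Figure D3:**
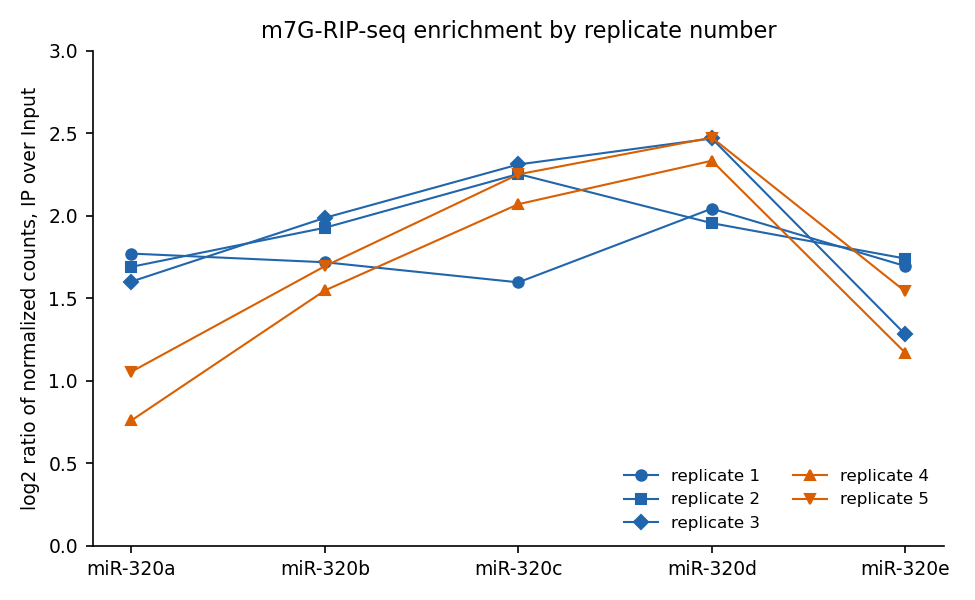
Log2 ratio of normalized counts, IP over Input of the same replicate number (y axis), for each member (x axis), with 1 line per replicate, replicates 1 to 3 in blue and replicates 4 and 5 in orange. The orange lines start lowest, at 0.76 and 1.05 for miR-320a, and reach 2.33 and 2.47 for miR-320d.

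The composition of the family was compared by the share of miR-320a in the family counts, which does not depend on scaling, and this share was lower on average in both pulldowns. It was 89.4% and 88.5% in Ctrl and 82.0% and 80.3% in Red, a difference in means of -7.82 percentage points, given with no test, since an exact permutation test of 2 libraries against 2 cannot go below 0.333. The shares of miR-320b were 7.79% and 8.06% in Ctrl and 10.98% and 11.8% in Red. Those of miR-320c were 1.78% and 2.04% in Ctrl and 4.93% and 5.37% in Red. The groups did not overlap for these 3 members. Nor did they for miR-320d (0.86% and 1.23% in Ctrl, 1.82% and 2.22% in Red) or miR-320e (0.19% and 0.13% in Ctrl, 0.30% and 0.29% in Red). The shares of a library add up to the whole, so they are not separate observations, and 2 libraries against 2 separate easily.

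In m7G-RIP-seq the share of miR-320a was 89.4%, 90.7%, 91.0%, 89.8% and 88.9% in Input 1 to 5 and 89.7%, 88.7%, 87.8%, 81.3% and 81.4% in IP 1 to 5. The groups overlapped at the level of IP 1, and IP 4 and IP 5 were the lowest. The mean fell by 4.17 percentage points, from 89.97% ± 0.87 to 85.8% ± 4.10 (SD, n = 5 each; exact permutation test, two-sided, p = 0.0317). With replicates paired by number the sign-flip permutation test gave p = 0.125, where 0.0625 is the smallest it can give. Leaving out any single Input library also ended the call (exact permutation p = 0.0635 to 0.127). The difference was -1.63 points in replicates 1 to 3 (exact permutation p = 0.2) and -7.99 points in replicates 4 and 5 (exact permutation p = 0.333, the smallest that 2 against 2 can give). The lower share in IP was thus mostly that of replicates 4 and 5, and its difference from Input passed the test with all 10 libraries unpaired, also with counts divided by the number of hairpins (-2.41 points, exact permutation p = 0.0317), and with any IP library left out.

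**Figure D4:**
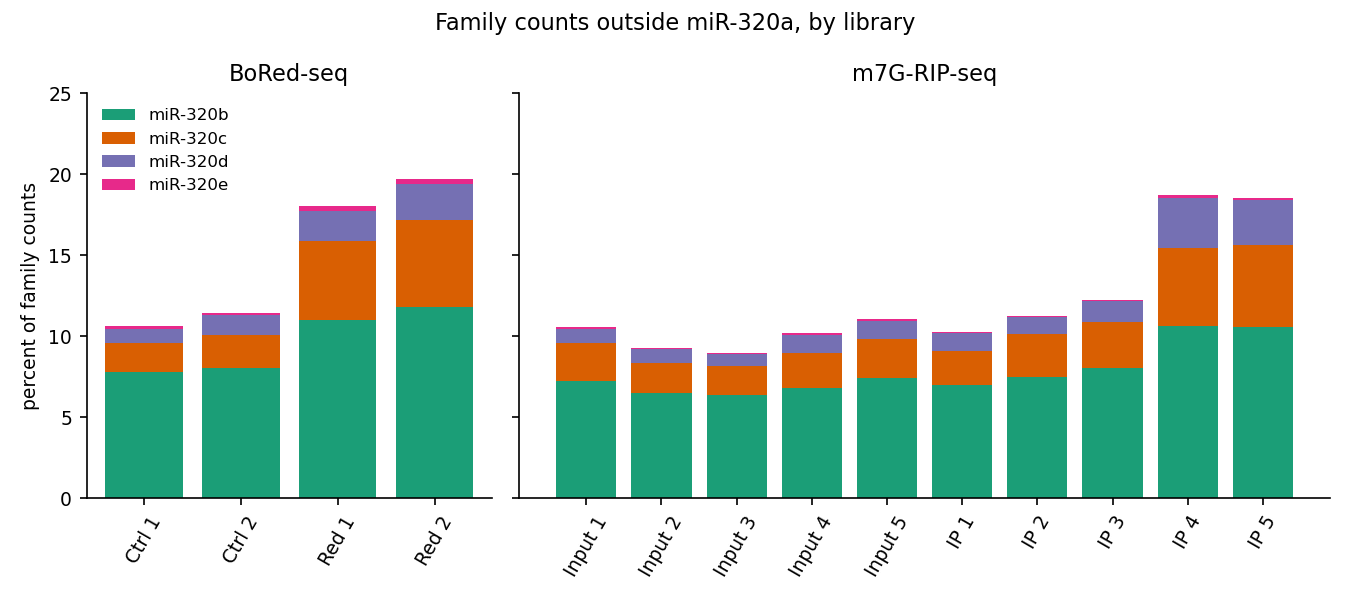
Percent of the family counts held by miR-320b, miR-320c, miR-320d and miR-320e in each library (y axis, bars stacked from 0), with the rest held by miR-320a. The bars of Red 1, Red 2, IP 4 and IP 5 reach 18.0% to 19.7%, and the other 10 bars lie between 8.98% and 12.2%.

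The members were compared between the assays by the difference of their log2 enrichments, BoRed-seq minus m7G-RIP-seq, with a two-sided z test on the DESeq2 standard errors, adjusted over 384 miRNAs. Of these, 29.4% were called higher in BoRed-seq, and 3 of 5 members were. The difference was 1.87 ± 0.38 for miR-320c (DESeq2 z test adjusted p = 6.55e-06), 1.26 ± 0.38 for miR-320b (adjusted p = 0.00344) and 1.24 ± 0.43 for miR-320d (adjusted p = 0.0148). For miR-320a it was 0.93 ± 0.44 (adjusted p = 0.0784 from the DESeq2 errors). With the replicate number as a block in both assays it was 1.03 ± 0.31 and passed the z test (adjusted p = 0.00403). The BoRed-seq numbers were not otherwise taken to pair the libraries. With total-count scaling it was 1.66 and passed too. In the 4 other alternatives that kept all libraries it was 0.47 to 0.71 and was not called. For miR-320e it was 1.88 ± 0.88 (adjusted p = 0.0764 from the DESeq2 errors).

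These differences between assays were less firm than the enrichments themselves. Without Ctrl 1, 0 of 5 members passed the z test on DESeq2 errors, and miR-320c had the lowest unadjusted p (0.0509, a difference of 1.05). Without Ctrl 2 only miR-320c passed. Without Red 2 the call for miR-320d was lost (1.41, adjusted p = 0.0822). An interaction term over all 14 libraries called only miR-320c and miR-320d. The assays also differ in chemistry, in their controls and in depth, so a larger value in BoRed-seq is a difference between readouts.

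The seed mate miR-4429 was enriched in both assays. It had 22 and 9 raw counts in Ctrl and 17 and 13 in Red, and its BoRed-seq log2 enrichment was 3.29 ± 0.78 (DESeq2 adjusted p = 6.98e-05). In m7G-RIP-seq it had 72.1 to 131 normalized counts in Input and 154 to 463 in IP, a log2 enrichment of 1.66 ± 0.38 (DESeq2 adjusted p = 4.69e-05). Its IP values were 430, 463, 381, 155 and 154, so IP 4 and IP 5 were again the lowest. Read assignment limits miR-4429 too. Up to its change G19C, U11C was its only change from miR-320b, and the authors allowed 1 mismatch. Whether reads of the family were counted as miR-4429 was not tested.

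Over the 10 m7G-RIP-seq libraries miR-4429 was also the miRNA whose log2 level was most like that of the family sum, with a Pearson r of 0.992 among 308 miRNAs of sufficient level. It was followed by miR-3182 (r = 0.980), miR-3180 (r = 0.977), miR-3180-3p (r = 0.976) and miR-6724-5p (r = 0.975). The libraries fall into IP and Input, so any enriched miRNA has a high r, and these values are a description. Within the family r ran from 0.775 for miR-320a with miR-320d to 0.978 for miR-320b with miR-320c. miR-3182 differed from the family in BoRed-seq, where its log2 enrichment was 8.96 ± 0.46 (DESeq2 adjusted p = 4.44e-82).

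Other miRNAs known to be made without Drosha gave mixed values. Of a list of 23, made up of miR-484, whose hairpin is also transcribed directly, and of mirtrons, which are excised by splicing, 22 were in the tables. In BoRed-seq 2 of them passed the filter, with 1 enriched, 0 depleted and a median log2 enrichment of 1.18, beside 32.2% enriched among all miRNAs tested. In m7G-RIP-seq 8 passed, with 3 enriched, 0 depleted and a median of 0.54, beside 27.3% enriched among all. The 5 members of the miR-320 family are not on this list.

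The directly transcribed miR-484 was not called enriched in either assay. It had 279 and 239 normalized counts in Ctrl and 233 and 193 in Red, with a log2 value of -0.29 ± 0.35 (DESeq2 adjusted p = 0.497). In m7G-RIP-seq it had 5803 to 6890 in Input and 5047 to 7268 in IP, with a log2 value of -0.13 ± 0.14 (DESeq2 adjusted p = 0.446). The mirtron product miR-877-5p was enriched in both assays, by a log2 of 2.66 ± 0.44 in BoRed-seq (DESeq2 adjusted p = 1.02e-08) and 3.25 ± 0.34 in m7G-RIP-seq (DESeq2 adjusted p = 6.19e-20). The mirtron product miR-1226-3p had a log2 value of -0.83 ± 0.65 in m7G-RIP-seq (DESeq2 adjusted p = 0.269) and did not pass the filter in BoRed-seq.

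The sequence features of the family were set beside the enrichment of other miRNAs, with the members left out. Tested miRNAs without a sequence among the RefSeq entries used were not counted. The features were chosen after the values were seen. Among tested miRNAs with the run GGG, 44.5% (49 of 110) were enriched in BoRed-seq and 43.3% (90 of 208) in m7G-RIP-seq. Without it 25.3% (61 of 241) and 19.7% (77 of 390) were enriched. Of the miRNAs of 20 bases or fewer, 81.5% (22 of 27) were enriched in BoRed-seq and 49.0% (25 of 51) in m7G-RIP-seq, against 27.2% and 25.96% of longer miRNAs. The 4 members with a sequence hold GGG, and 3 of them have 20 bases or fewer, features whose other carriers were called enriched in a larger share than the rest, and the part of base composition, length and read assignment in their enrichment was not tested.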

How the data were processed

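Small RNA libraries of A549 cells (Ctrl and Red, n = 2 each; Input and IP, n = 5 each) were assigned to groups by their labels. The deposited values were raw read counts per mature miRNA, 1 table per assay. The authors trimmed adaptors with Trimmomatic and aligned reads to hg38 end to end (STAR in their methods, Bowtie2 in the submitters' processing notes). They kept reads with at most 1 mismatch and up to 10 loci, and counted mature miRNAs of miRBase with featureCounts, without pooling. Counts of near-identical or multi-copy miRNAs are therefore uncertain. The tables held 0 columns without a sample.

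Here, miRNAs that reached 10 counts in 2 or more (BoRed-seq) or 5 or more (m7G-RIP-seq) libraries were tested with the DESeq2 1.42.0 Wald test (R 4.3.3), as in the study's methods, with median-of-ratios size factors, no shrinkage and Benjamini-Hochberg adjustment over all miRNAs tested. The calls use adjusted p under 0.05. Differences between assays were tested with a z test, and shares with two-sided exact permutation tests over 252 arrangements. Alternatives were TMM factors and the quasi-likelihood test of edgeR 4.0.16, total-count scaling, other filters, Ctrl counts thinned to the Red depth, a replicate block, sets of replicates, counts divided by the number of hairpins, and leaving out each library. The fits were tested on simulated data. Sequences and hairpin positions came from RefSeq and the GENCODE annotation.

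Same-numbered m7G-RIP-seq libraries deviated together from their group means (r = 0.146 to 0.387, 5 pairs). The numbers were therefore taken to pair them, but only in the replicate block and the sign-flip test. The main fits, the main z test and the main permutation test of shares left the libraries unpaired. Differently numbered libraries within a set of replicates had r of like size (0.076 to 0.171 in replicates 1 to 3, 0.359 and 0.373 in 4 and 5), and 3 of 5 correlated best with their own number, so r reflects the sets as well as the numbers. The members and lists were chosen with earlier results of these data known. The named miRNAs were the 5 members, others sharing a member's seed, the 5 with the highest r to the family sum among those with a mean of at least 100 normalized counts, the 3 Drosha-independent miRNAs highest in Input, and miR-21-5p.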

Additional observations from a re-analysis of the deposited data

Results flagged for a closer look

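For 3 members the enrichment differed between the assays by a test of the difference itself, the z test on DESeq2 standard errors. BoRed-seq minus m7G-RIP-seq was 1.26 for miR-320b, 1.87 for miR-320c and 1.24 for miR-320d on the log2 scale. Within m7G-RIP-seq, the log2 enrichment of miR-320a was lower in replicates 4 and 5 than in replicates 1 to 3, with a difference of -0.79 in the DESeq2 interaction test. The labels do not name these sets, and the test was added after the values were seen, so this difference is a description. The causes were not tested. Dixon's test for a single distant library found none in 20 sets of 5 values, but it cannot find a pair of libraries that lie apart together, as IP 4 and IP 5 do for miR-320a.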

How the results depend on the processing

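Of 149 recalculations of a member's enrichment, 147 kept direction and call, and the 2 that lost the call were those of miR-320e in BoRed-seq without Ctrl 1 or Ctrl 2. With 10 counts required in every BoRed-seq library, miR-320e was not tested and the other 4 members were called. Between the assays, 3 members differed; 5 did with total-count scaling, 1 without a count filter, and 0 to 3 when a library was left out. Of 99 recalculations of a member's difference between the assays, 85 stayed on their side of the threshold, which for miR-320a and miR-320e means not called, 11 lost a call and 3 gained one, and none changed sign. The estimates moved as well. For miR-320b the difference was 0.51 without Ctrl 1 and 1.52 without Red 1, against 1.26 with all libraries. Leaving out a BoRed-seq library leaves 1 in that group, whose spread is then assumed from the other group. The cause was not tested.

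The fall in the share of miR-320a in IP kept its size of -4.17 points but not its call with the replicate block, and was -1.63 points in replicates 1 to 3, -7.99 points in replicates 4 and 5, and -5.16 to -3.05 points with a library left out. With counts divided by the number of hairpins it was -2.41 points and passed the exact permutation test (p = 0.0317). In Red it was -4.64 points with counts so divided, and -8.66 to -6.99 points with a library left out.

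In BoRed-seq the numbers were not taken to pair the libraries. With 2 libraries a group both pairs must have the same r (0.110), so r cannot decide the pairing there. The replicate block kept all 5 members enriched in each assay and called 4 members between assays, miR-320a being the one gained. Depth limits miR-1226-3p, which missed the BoRed-seq filter, and also miR-320e and miR-4429, the latter pair with 7 to 22 counts per BoRed-seq library.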
